A study of Drosophila melanogaster with 40 samples.

Results

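Binding of the pioneer transcription factor Zelda (ZLD) was compared between wild-type embryos and embryos that lacked maternal dPCIF1. The comparison took every sample of the groups ZLD ChIP wild type and ZLD ChIP M-Z+ dPCIF1 mutant, which gave 4 of the 40 samples of the series and 2 replicates per genotype. All 4 came from Drosophila melanogaster embryos collected 0.5 to 1.5 h after egg laying. Wild-type embryos were of the w1118 strain. M-Z+ embryos received no functional dPCIF1 product from the mother and carried a zygotic copy, where dPCIF1 (gene Pcif1, CG11399) is the fly homologue of the mammalian cap methyltransferase PCIF1. The study made null alleles by CRISPR and combined them with a deficiency, and the labels do not say which combination gave these embryos. Each replicate was made from pooled, hand-selected embryos, and the inputs were shared with the precipitation of the pioneer factor GAF. Every deposited list holds the chromosome, start and end of each peak called in 1 replicate, on the dm6 genome, and no height. Sequencing depth is therefore unknown, and a wider or additional peak cannot be told apart from a deeper or more efficient library. The 4 lists were joined into 7194 merged regions wherever peaks overlapped by at least 1 bp. A region was kept if all 4 lists called it, gained if both mutant lists and neither wild-type list did, and lost in the reverse case.

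Zelda is a zinc finger protein deposited by the mother. It binds DNA early in the nuclear cycles, opens chromatin there, and is needed for the earliest zygotic genes, among them those of cellularization, sex determination and patterning. It recognises the TAGteam family of sites, of which CAGGTAG is the strongest and CAGGTA the core.

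Stretches of reference sequence around a CAGGTAG are shown for regions of each class, because the site is the known Zelda target and its frequency is compared between the classes below. For each class these are among the widest regions that hold the site outside annotated exons, and for kept regions also the promoters of sc and sisA. The widest kept region of all, described further on, is not shown here. Each run of 120 bases was read 5′ to 3′ on the strand that carries the site from the RefSeq copy of the Drosophila Release 6 (dm6) assembly, and the capitals mark the site.
Kept, near BobA, 3L:14946132-14946251, minus strand: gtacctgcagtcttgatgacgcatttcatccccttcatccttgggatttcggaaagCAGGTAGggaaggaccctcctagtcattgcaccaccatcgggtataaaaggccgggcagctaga
Kept, intergenic, 3R:29304158-29304277, plus strand: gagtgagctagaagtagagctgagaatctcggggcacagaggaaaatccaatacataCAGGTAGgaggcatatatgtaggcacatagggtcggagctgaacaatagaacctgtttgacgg
Kept, promoter of sc, X:395884-396003, plus strand: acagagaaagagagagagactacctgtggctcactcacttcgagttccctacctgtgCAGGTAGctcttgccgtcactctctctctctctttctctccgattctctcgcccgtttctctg
Kept, promoter of sisA, X:11322457-11322576, minus strand: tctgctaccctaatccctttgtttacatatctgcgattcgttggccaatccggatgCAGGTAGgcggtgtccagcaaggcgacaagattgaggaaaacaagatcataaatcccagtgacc
Gained, intergenic, 3R:31702047-31702166, plus strand: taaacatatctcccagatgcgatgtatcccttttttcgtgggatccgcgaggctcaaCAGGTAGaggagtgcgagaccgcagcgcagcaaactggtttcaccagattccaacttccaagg
Gained, intron of bru3, 3L:13675041-13675160, plus strand: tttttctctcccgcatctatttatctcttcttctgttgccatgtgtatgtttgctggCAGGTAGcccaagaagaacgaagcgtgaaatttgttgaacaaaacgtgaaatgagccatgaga
Lost, promoter of Cip4, 3L:4363456-4363575, plus strand: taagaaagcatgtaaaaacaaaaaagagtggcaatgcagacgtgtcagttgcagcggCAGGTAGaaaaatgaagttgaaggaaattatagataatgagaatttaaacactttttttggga
Lost, promoter of tinc, 3R:17811155-17811274, minus strand: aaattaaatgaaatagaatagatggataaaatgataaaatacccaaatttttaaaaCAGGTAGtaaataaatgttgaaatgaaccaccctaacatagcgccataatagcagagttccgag

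The kept region near BobA, a gene of the Bearded family that acts in Notch signalling, was covered by peaks over 9307 and 9615 bp in the wild-type lists and 10610 and 11045 bp in the mutant lists. The kept intergenic region on 3R was covered over 7673 and 7053 bp in the wild type, against 10499 and 9663 bp in the mutant lists. Both regions were covered further in each mutant list than in each wild-type list. The gained region on 3R had peaks of 1310 and 1170 bp in the mutant lists, and the gained region in bru3, which encodes an RNA-binding protein of the Bruno family, was covered over 1117 and 1863 bp. In the wild-type lists, the lost region at Cip4 was covered over 532 and 568 bp, and that at tinc over 493 and 452 bp.

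The Zelda lists were of similar length in both genotypes. The wild-type replicates held 4843 and 3817 peaks (4330 ± 725, SD, n = 2), and the mutant replicates held 4477 and 4263 (4370 ± 151, SD, n = 2). The mutant numbers lay between those of the wild type, and the log2 number differed by 0.02 (exact permutation test, two-sided, p = 1). The difference was -0.15 without wild-type replicate 2 and -0.012 without mutant replicate 1. The bases under peaks were separated by genotype, with 3.22 and 2.69 Mb in the wild type against 3.67 and 3.47 Mb in the mutant. Their log2 difference was 0.28 (exact permutation test, n = 2 per genotype, p = 0.33), which is the smallest p that 2 lists against 2 can give. No list-level comparison here could therefore pass a threshold of 0.05.

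The lists of different genotype were nearly as alike as the wild-type replicates were. The share of bases held in common, of all bases under peaks in either list (Jaccard index), was 0.480 between the wild-type replicates and 0.461 to 0.474 between lists of different genotype. It was higher, at 0.635, between the mutant replicates. Wild-type replicate 1 had 57.8% of its peaks overlapped by the other wild-type list and 63.9% by mutant replicate 1. The same shares for wild-type replicate 2 were 73.6% and 72.2%.

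Peaks were spread over genome features in much the same way in both genotypes. Promoters, taken as 1 kb to either side of a transcription start site (TSS), were overlapped by 39.4% and 44.0% of the wild-type peaks and by 42.6% and 41.8% of the mutant peaks. The wild-type replicates enclosed the mutant values, and the difference of 0.455 percentage points (exact permutation test, n = 2 per genotype, p = 1) turned to -1.89 without wild-type replicate 1. Of the wild-type peaks outside promoters, those with the midpoint in an intron made up 28.1% and 26.9% of the lists, against 28.7% and 28.9% in the mutant. Intron shares were separated by genotype, by 1.29 points (exact permutation test, n = 2 per genotype, p = 0.33). The GAF intron shares were separated too, at 24.7% and 25.4% in the wild type against 27.3% and 25.7% in the mutant. Intergenic peaks made up 28.5% and 26.1% of the wild-type lists and 26.0% and 26.5% of the mutant lists. The intergenic share differed by -1.08 points (exact permutation test, n = 2 per genotype, p = 0.667). Few peaks lay in untranslated regions away from promoters, with 114 and 59 in the wild type, against 40 and 38 in the mutant lists. Of the wild-type ones, 76 were in regions called in wild-type replicate 1 alone and 29 in regions called in wild-type replicate 2 alone.

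Zelda peaks were wider in the mutant, mainly among the wide peaks. The median width was 489 and 520 bp in the wild type (504.5 ± 21.9, SD, n = 2) and 559 and 565 bp in the mutant (562 ± 4.24, SD, n = 2). Both mutant medians exceeded both wild-type medians, by 0.16 on the log2 scale (exact permutation test, two-sided, p = 0.33). Narrow peaks showed no such order, with a 25th percentile of 346 and 363 bp against 360 and 356 bp. At the 75th percentile the widths were 760.5 and 821 bp in the wild type, against 968 and 952 bp in the mutant lists, and at the 90th percentile they were 1241 and 1314 bp against 1615 and 1601 bp. Peaks of at least 1000 bp made up 15% and 18.1% of the wild-type lists and 23.7% and 23.3% of the mutant lists. Those of at least 5 kb numbered 6 and 5 in the wild type, against 19 and 13 in the mutant lists. Neighbouring peaks were also divided less often in the mutant. Of the 2083 regions called in all 4 lists, 278 and 261 held more than 1 peak in the wild-type lists and 186 and 191 in the mutant lists. How much of the difference in peak width lay in this was not measured. The narrowest peaks went the other way, at 260 and 271 bp in the wild type, against 247 and 243 bp in the mutant lists. The peak caller sets its minimum width from the fragment length of the library, so the narrowest peaks bear on that length. The part of fragment length in the width of other peaks was not tested. GAF peaks from the same genotypes had overlapping median widths of 678 and 630 bp in the wild type, against 629 and 705.5 bp in the mutant lists.

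**Figure D1:**
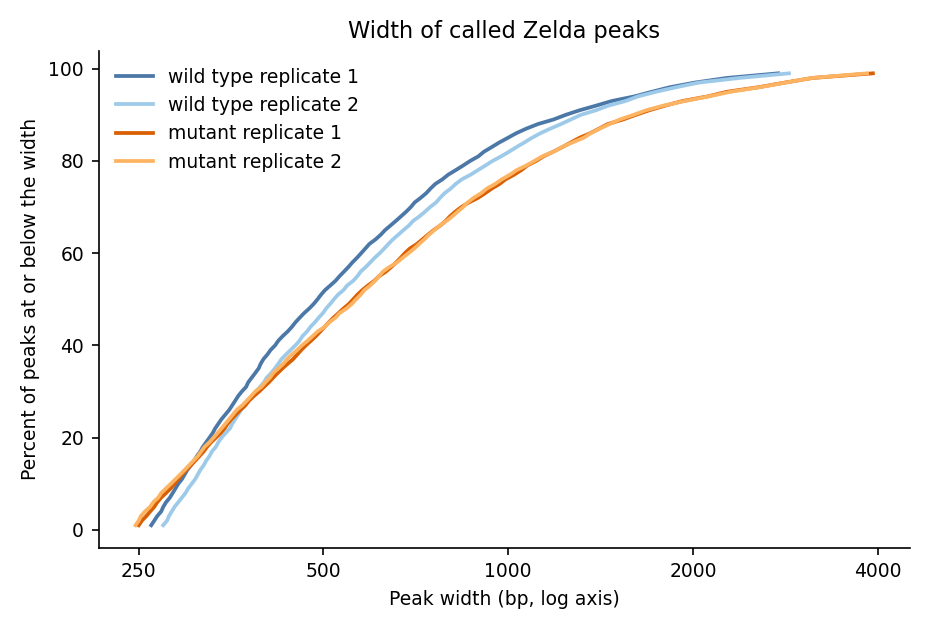
Percent of Zelda peaks (vertical axis) at or below each width in bp (horizontal log axis), with 1 line per list from the 1st to the 99th percentile. Both mutant lines lie to the left of both wild-type lines up to the 13th percentile, the lines cross between there and the 30th, and from the 31st percentile on both mutant lines lie to the right, with 90th percentiles of 1615 and 1601 bp against 1241 and 1314 bp.

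Peaks of at least 5 kb in some list fell in 23 regions, and most of these peaks were called in the mutant. Many of them were 1 call in the mutant where the wild type had several neighbouring calls, so the bases covered differed less than the peak widths did. A region on 2R (13559501 to 13573494) held 2 peaks in each wild-type list, which together covered 12431 and 12602 bp, and 1 peak in each mutant list, of 13994 and 13560 bp. At wech, 3 peaks in each wild-type list covered 5650 and 5409 bp, and 1 peak in each mutant list covered 6321 and 6232 bp. At chn, which encodes a zinc finger protein of the nervous system, 3 and 2 wild-type peaks covered 4535 and 4664 bp, and 1 peak in each mutant list covered 5612 and 5603 bp. Each of these regions was covered further in both mutant lists than in either wild-type list. At the Enhancer of split complex, the target genes of Notch, the widest peak near E(spl)m4-BFM was about equal in all lists, at 6266, 6016, 6304 and 6298 bp. These regions were chosen for their widths, which carry no test.

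Most merged Zelda regions were called in 1 list or in all 4. Kept regions numbered 2083 (29.0% of 7194), gained regions 536 (7.45%) and lost regions 264 (3.67%). A further 3067 were called in 1 list alone, of which 1215 came from wild-type replicate 1, 621 from wild-type replicate 2, 679 from mutant replicate 1 and 552 from mutant replicate 2. The wild-type replicates disagreed on 2872 regions and the mutant replicates on 1903. A gained or lost region must follow genotype in all 4 lists, a stricter rule than disagreement between 1 list and another, so these numbers are not like for like. Of the 572 regions called in both mutant lists and 1 wild-type list, 400 were those of wild-type replicate 1. Leaving out a list asks for fewer calls, so the numbers rise by construction and show how many regions rest on the last list. Gained regions numbered 946 without wild-type replicate 1, 1131 without mutant replicate 1 and 1269 without mutant replicate 2. Lost regions numbered 893 without wild-type replicate 1 and 1487 without wild-type replicate 2.

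**Figure D2:**
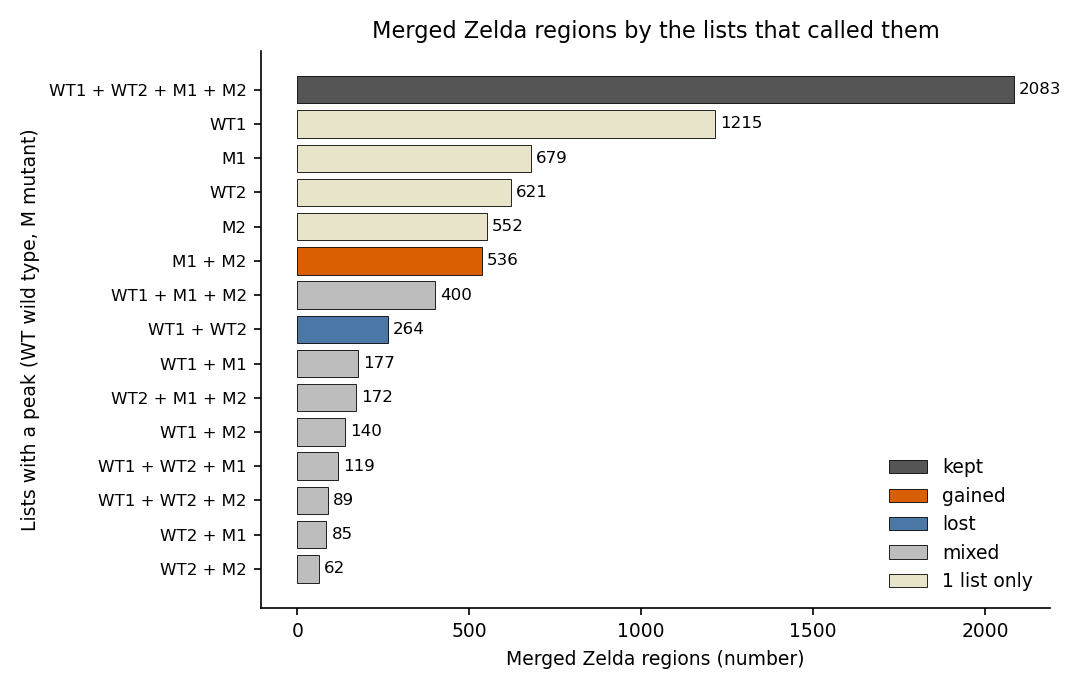
Number of merged Zelda regions (horizontal axis) for each combination of lists that called them (vertical axis), coloured by class. The 2083 kept regions form the longest bar, and the 536 gained and 264 lost regions are fewer than the 1215 regions called in wild-type replicate 1 alone.

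Kept regions were the widest and lay most often at promoters. Their merged width had a median of 1159 bp, against 503 bp for gained and 522 bp for lost regions and 325 to 348 bp for regions of 1 list. Of kept regions 52.4% overlapped a promoter, 25.7% were intronic and 20.5% intergenic. Gained regions were split more evenly, with 29.9% at promoters, 32.8% in introns and 32.5% intergenic. Lost regions were 31.8% at promoters, 22% in introns and 42.8% intergenic. Gained regions lay closer to kept ones than lost regions did. The median distance to the nearest kept region was 6861 bp for gained and 40437 bp for lost regions, and 44.8% and 27.3% lay within 5 kb of one. For regions of mutant replicate 1 alone or mutant replicate 2 alone these shares were 42.3% and 34.2%, and for those of wild-type replicate 1 alone or wild-type replicate 2 alone 18.8% and 22.4%. Sequence near centromeres, as set further on, held 42.4% of lost and 8.96% of gained regions but only 1.54% of kept ones. Distances outside that sequence were not measured.

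At kept regions, peaks covered more bases in the mutant. The median covered width was 780 and 740 bp in the wild-type lists and 960 and 894 bp in the mutant lists, a log2 difference of 0.29 (two-sided exact permutation test, n = 2 per genotype, p = 0.33). Region by region, the median log2 ratio of mutant to wild type was 0.24, with an interquartile range of -0.02 to 0.53. Between replicates the median log2 ratio was -0.05 in the wild type and -0.03 in the mutant, and the median absolute difference was 0.29 and 0.18. A typical shift between genotypes was therefore about as large as the scatter of a single region between replicates, but it went mostly one way. Both mutant lists were wider than both wild-type lists at 943 of 2083 kept regions (45.3%), and narrower at 219 (10.5%), while the lists overlapped at 921. With each list left out in turn, the regions wider in the mutant outnumbered the narrower ones, at 53.6% to 60.5% wider and 18% to 22.6% narrower, where both shares rise because fewer lists must be in order.

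The median shift was above 0 at promoters, in introns and in intergenic sequence, and below 0 in the histone gene cluster described further on. The median log2 ratio was 0.20 at kept promoters, 0.28 in introns and 0.21 in intergenic sequence. It was 0.27 for kept regions with a CAGGTAG anywhere in them and 0.22 for those without. It was 0.26 where a wild-type dPCIF1 region overlapped and 0.22 elsewhere. Covered width sums all peaks of a region, so joining neighbouring peaks into 1 adds only the gap between them.

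**Figure D3:**
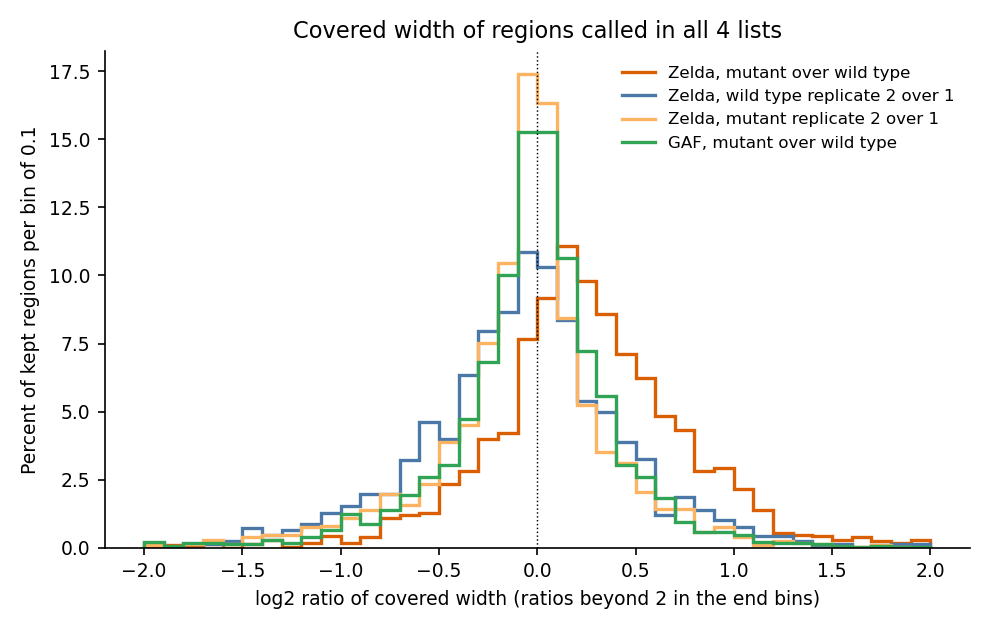
Distribution over kept regions of the log2 ratio of covered width (horizontal axis), in percent of regions per bin of 0.1 (vertical axis), for Zelda between genotypes, for Zelda between replicates of each genotype and for GAF between genotypes. The Zelda genotype curve is shifted to the right, with a median of 0.24, while the replicate curves have medians of -0.05 and -0.03 and the GAF curve lies around 0.

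GAF regions called in all 4 GAF lists did not show this shift. Over 3727 such regions the median log2 ratio was -0.0012, with 25.5% wider and 25.8% narrower in both mutant lists. The Zelda effect exceeded the GAF effect by 0.33 on the log2 scale of the list medians, which did not pass the test (exact permutation over 36 assignments of lists within factors, p = 0.167, n = 2 per group). At the 1006 kept GAF regions that met a kept Zelda region, the median log2 ratio of GAF width was 0.04. Zelda widths at the 1142 kept Zelda regions that met a kept GAF region had a median log2 ratio of 0.28, against 0.19 at the other 941.

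Early genes chosen as known Zelda targets kept their promoter peaks. A set of 19 genes of sex determination, cellularization and patterning, picked as known to be bound by Zelda, was read in every list. Of these, 18 had a promoter peak in all 4, which follows largely from the choice. The exception was sog, an inhibitor of Dpp signalling, whose promoter was called in mutant replicate 1 alone but whose gene held 3, 3, 4 and 3 peaks. The widest promoter peak was wider in both mutant lists than in both wild-type lists at 15 of the 18 genes and narrower in both at none. Measured as the bases under all peaks of the merged regions that hold those peaks, a measure added after the widths were seen, 13 of the 18 genes were wider in both mutant lists and none narrower, as slam and Sxl then overlapped. Over all 1405 genes with a kept promoter peak, the corresponding shares were 37.9% wider (532 genes) and 17.5% narrower (246 genes).

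At tll, a gap gene of the embryo's ends, the widest promoter peak was 1007 and 1102 bp in the wild type, against 3738 and 3525 bp in the mutant lists. The wild type had 2 peaks where the mutant had 1, and the bases covered were 2686 and 2348 bp against 3738 and 3525 bp. For dpp, the ligand that patterns the dorsal side, the widest promoter peak was 1284 and 1225 bp against 3499 and 4616 bp, and the bases covered were 4487 and 3139 bp, in 5 peaks in each list, against 6955 and 7573 bp in 3 and 2 peaks. At both genes the mutant values lay above the wild-type values on either measure, and the covered bases differed by less. For nullo, which acts in cellularization, the promoter peak was 433 and 425 bp in the wild type, against 869 and 1010 bp in the mutant lists. For brk, a repressor of Dpp targets, it was 533 and 360 bp against 835 and 783 bp. The peak at zld itself was 911 and 829 bp in the wild type, against 1511 and 1333 bp in the mutant lists. At these 3 genes too, both mutant peaks were wider than both wild-type peaks. At hb, a gap gene, the peaks were 782 and 745 bp in the wild type, against 848 and 3908 bp in the mutant lists, so that 1 mutant list carried most of the difference, and the bases covered were 3627 and 3374 bp against 4230 and 4577 bp.

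Other early genes differed less or overlapped between genotypes. At sisA, 1 of the X-linked activators of Sxl, the widest promoter peak was 975 and 1036 bp in the wild type, against 1074 and 1053 bp in the mutant lists. At sc, which acts with it, it was 695 and 595 bp against 837 and 872 bp. The groups did not overlap at either gene. At Sxl, the switch gene of sex determination, the widths were 1505 and 1090 bp in the wild type, against 1530 and 2082 bp in the mutant lists, and the bases covered overlapped. At kni, a gap gene, they were 1877 and 1651 bp against 1774 and 1499 bp, and at twi, a mesoderm regulator, 543 and 443 bp against 508 and 425 bp. At ftz, a pair-rule gene, they were 1113 and 2180 bp in the wild type, against 2100 and 2177 bp in the mutant lists. The genotypes overlapped at kni, twi and ftz.

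**Figure D4:**
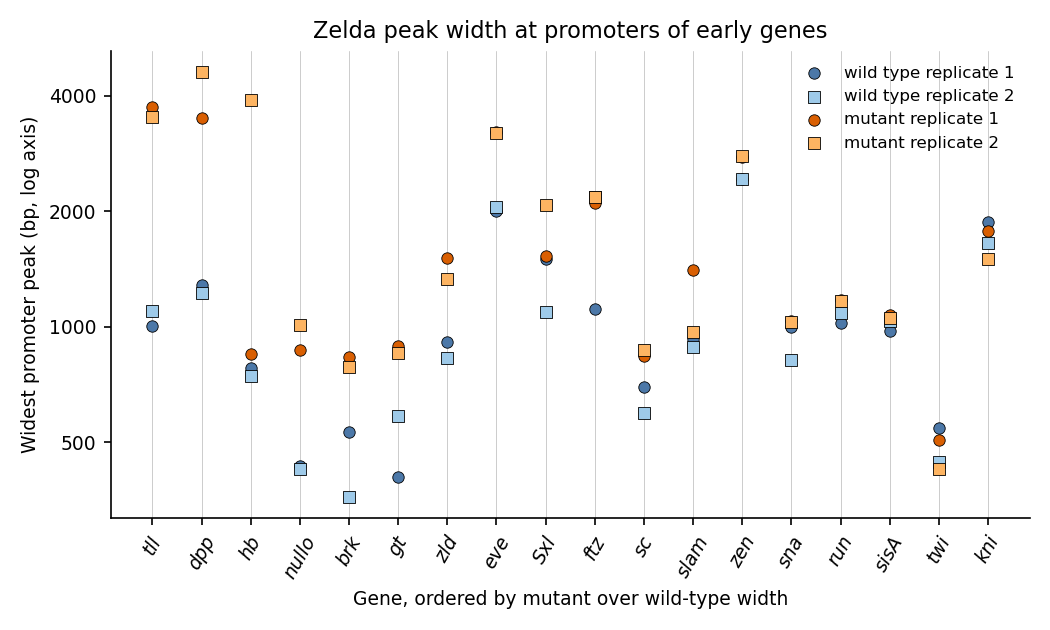
Width in bp (vertical log axis) of the widest Zelda peak at the promoter of each of 18 early genes (horizontal axis, ordered by the mutant to wild-type ratio), with 1 point per list. At 15 genes both mutant points lie above both wild-type points, as at tll with 3738 and 3525 bp over 1007 and 1102 bp, and at kni, twi and ftz they overlap.

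Developmental gene lists were occupied almost throughout. Of 122 genes in 10 lists (cellularization, sex determination, gap, pair-rule, segment polarity, mesoderm and neurogenic ectoderm, dorsal ectoderm, Bearded and Enhancer of split, Hox, and early microRNA genes), 111 had a kept promoter peak, none a gained and none a lost one. Over all 18358 annotated genes the shares were 7.65% kept (1405), 0.833% gained (153) and 0.735% lost (135). Of the 111 genes, 58 had a wider promoter peak in both mutant lists and 17 a narrower one, with a median log2 ratio of 0.25, against 0.16 over all kept promoters. Their median wild-type widths were already larger, at 1112 and 986 bp against 882 and 853 bp over all kept promoters. The part of starting width in this was not tested. Of the 6 kept sex determination genes 5 were wider, of the 15 kept Bearded and Enhancer of split genes 12 were wider, and of the 10 kept segment polarity genes 7 were wider. Of the 16 kept mesoderm and neurogenic ectoderm genes, 5 were wider and 2 narrower. Of the 14 kept dorsal ectoderm genes, 6 were wider and 2 narrower, and of the 8 kept Hox genes, 3 were wider and 1 narrower. Neighbouring genes of a complex can share a peak, so these counts are not independent.

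The peak of the mir-309 microRNA cluster went the other way, with most of the difference in 1 mutant list. Of 10 early microRNA genes with a kept peak, 8 were narrower in both mutant lists. All 8 were hairpins of the mir-309 cluster, whose products clear maternal transcripts, and they are among the 17 narrower genes given above. At mir-10 and mir-iab-4 the genotypes overlapped. The 8 hairpins share 1 peak, of 3610 and 3352 bp in the wild type, against 3310 and 2030 bp in the mutant lists. The width in mutant replicate 1 was thus close to that in wild-type replicate 2. The gene CG11018, whose widest promoter peak had the same widths, held 1, 1, 1 and 2 peaks. Whether the call in mutant replicate 2 was divided rather than narrower was not tested. Over the hairpin with 1 kb upstream, mir-iab-4 of the Hox complex was called in the mutant lists alone, although its promoter window held peaks in all 4 lists.

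Ribosomal protein and transfer RNA genes lacked Zelda promoter peaks about as often as all genes did, and cuticle protein genes lacked them more often. No list called a promoter peak at 70 of 85, 244 of 295 and 118 of 120 of them, against 14966 of all 18358 genes. Of 85 genes for cytoplasmic ribosomal proteins, 5 had kept, 2 gained (RpS13 and RpS3A) and 0 lost promoter peaks, and of 120 cuticle protein genes none was kept, gained or lost. Of 295 transfer RNA genes, 13 were kept, 3 gained and 3 lost. Of 5 genes for pioneer factors, Trl, opa, psq and zld had a kept promoter peak that was wider in both mutant lists, and the promoter of Clamp was called in wild-type replicate 1 alone. Of 5 genes listed for HIRA, histone H3.3 and dPCIF1, 4 had no promoter peak and Pcif1 was lost.

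Genes with a gained promoter were few. Promoters of 153 genes were gained and those of 135 were lost. The wild-type replicates differed at 1220 genes and the mutant replicates at 707, by a looser rule that compares single lists. Leaving out single lists gave 256 to 333 gained and 207 to 543 lost genes, and each of the 4 lists moved both numbers by more than 1.5 times, upwards by construction. When peaks anywhere in the gene body or 1 kb upstream counted, 162 genes (0.882%) were gained, 140 (0.763%) lost and 1655 (9.02%) kept. Gained promoters were read among protein-coding genes with a name, which leaves out CG numbers such as CG1265 (1845 and 3070 bp). The widest peaks at them were at jp, which encodes junctophilin, with 1652 and 1677 bp in the mutant lists (2L, 9567626 to 9569277 in replicate 1). Next came aay, a phosphoserine phosphatase gene, with 1929 and 1220 bp (3L, 9421285 to 9423213 in replicate 1), and Alp12, an alkaline phosphatase gene, with 947 and 1059 bp (2L, 19425881 to 19426827). These 3 genes had no promoter peak in either wild-type list. At jp and aay, however, a wild-type peak met the same merged region outside the promoter window, so neither was a gained region. The peak midpoint at jp lay 1702 bp from the start site. Peaks at gained promoters also lay at tei (830 and 814 bp), Ttc7 (970 and 759 bp), bru3 (679 and 668 bp) and EloA (664 and 612 bp), the gene of the transcription elongation factor Elongin A. Others lay at PlexA, a semaphorin receptor gene (673 and 715 bp), and amn, a neuropeptide gene (642 and 638 bp). At p130CAS, an adaptor gene of integrin signalling, the mutant peaks of 879 and 762 bp stood at different start sites. None of the 10 is in the developmental lists. Wild-type GAF regions overlapped the promoters of all of them except PlexA and EloA, and dPCIF1 regions those of aay, tei, p130CAS and Ttc7. GAF regions met 57.5% of all gained promoters, 73.1% of kept ones and 21.7% of those of all genes. For dPCIF1 the shares were 44.4%, 69.8% and 16.9%.

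The targeted gene itself lost its Zelda peak. At Pcif1 (FBgn0037021, 3L, 20780350 to 20786197, minus strand), wild-type peaks were called of 616 bp (20784766 to 20785381) and 614 bp (20784868 to 20785481), and the mutant lists held none. GAF peaks were called there in all 4 GAF lists, with 2202 and 1856 bp in the wild type, against 2458 and 2453 bp in the mutant lists. An altered allele and altered binding cannot be told apart at this gene.

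Many lost regions lay near centromeres, and fewer in the histone genes. The histone gene cluster held 16 of the 264 lost regions, and its genes were 11 of the 135 with a lost promoter (8.15%). Of the 10 lost genes with a name and the widest promoter peaks, which leaves out CG16820 (1312 and 1448 bp), 5 were copies of His1, the gene of the linker histone. The copy His1:CG33840 had peaks of 1379 and 1449 bp in the wild type, and His1:CG33849 had peaks of 1382 and 1343 bp. The other 3 copies were His1:CG33861, His1:CG33858 and His1:CG33855. The remaining lost genes were PPP1R15 (751 and 748 bp), which encodes a regulator of a translation factor phosphatase, trio (674 and 651 bp, 3L, 1034298 to 1034971 in replicate 1), Sirt1 (633 and 651 bp), a histone deacetylase gene, Pcif1, and Jhbp13 (555 and 908 bp). The wild-type peaks at Jhbp13 and at His1:CG33861 did not overlap between the replicates, so no single peak was lost there. The mutant lists held no promoter peak at any of the 10. At His1:CG33840, His1:CG33849 and PPP1R15, however, a mutant peak met the same merged region outside the promoter window. These were therefore not lost regions, and their wild-type peaks had midpoints 1571, 1584 and 1171 bp from the start site.

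The histone gene cluster as a whole was then measured, a choice made after these values were seen. It is an array of repeated units with genes for H1, H2A, H2B, H3 and H4 (2L, 21415953 to 21542681 with 1 kb on each side). Zelda peaks covered 50.0 and 46.1 kb of it in the wild type (48.0 ± 2.76, SD, n = 2) and 23.3 and 21.3 kb in the mutant (22.3 ± 1.37, SD, n = 2). The lists were separated by genotype, with a log2 difference of -1.11 (exact permutation test, two-sided, p = 0.33). Peak numbers differed less, at 56 and 58 against 47 and 42, and the median width was 629 and 593 bp against 388 and 397 bp. Of 59 merged regions in the cluster, 16 were lost and 1 was gained. Of the 30 kept ones, 23 were narrower in both mutant lists and none was wider, with a median log2 ratio of -0.73.

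Within the cluster, promoter calls differed by gene family. Of 23 His1 genes, 18 and 16 had a promoter peak in the wild-type lists and 4 and 5 in the mutant lists, and 9 were lost. Of 22 His4 genes, 22 and 21 were called in the wild type, against 21 and 21 in the mutant lists, and of 20 His2A genes, 20 and 20 against 20 and 19. Of 23 His2B genes, 23 and 23 were called against 22 and 22, and of 23 His3 genes, 22 and 22 against 20 and 19. At the lost His1 copies named above, wild-type peak midpoints lay 934 to 1584 bp from the start site, around the edge of the 1 kb window. A peak that narrows there can leave the window without being lost, and the part of this in the His1 calls was not tested. GAF peaks covered 48.9 and 51.8 kb of the cluster in the wild type, against 38.6 and 27.5 kb in the mutant lists, which was also separated by genotype. The copies are nearly identical and the authors removed reads without a unique position, so calls at single copies are uncertain.

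Sequence near centromeres was taken, after the lost regions had been seen, as the ends of 2L and X from 22 Mb and of 3L from 23 Mb, the first 6 Mb of 2R and 4 Mb of 3R, and chromosomes 4 and Y. It held 13.0% and 9.75% of the wild-type Zelda peaks and 5.34% and 6.71% of the mutant peaks. The mutant lists were both lower than the wild-type lists. Of the 264 lost regions, 112 (42.4%) lay there, against 48 of the 536 gained regions (8.96%) and 32 of the 2083 kept regions (1.54%). Regions called in a single wild-type list had shares close to each other, at 29.9% for wild-type replicate 1 and 28.7% for wild-type replicate 2, and regions of a single mutant list had 10.8% and 21%. Of the lost regions, 21 were on Y, against 7 of the gained ones. GAF lists differed less, with 7.09% and 7.0% of peaks in the wild type, against 6.72% and 5.78% in the mutant lists. Outside the histone cluster and this sequence, 487 gained and 136 lost regions were left. Repeats are frequent near centromeres, and how they were mapped was not tested.

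**Figure D5:**
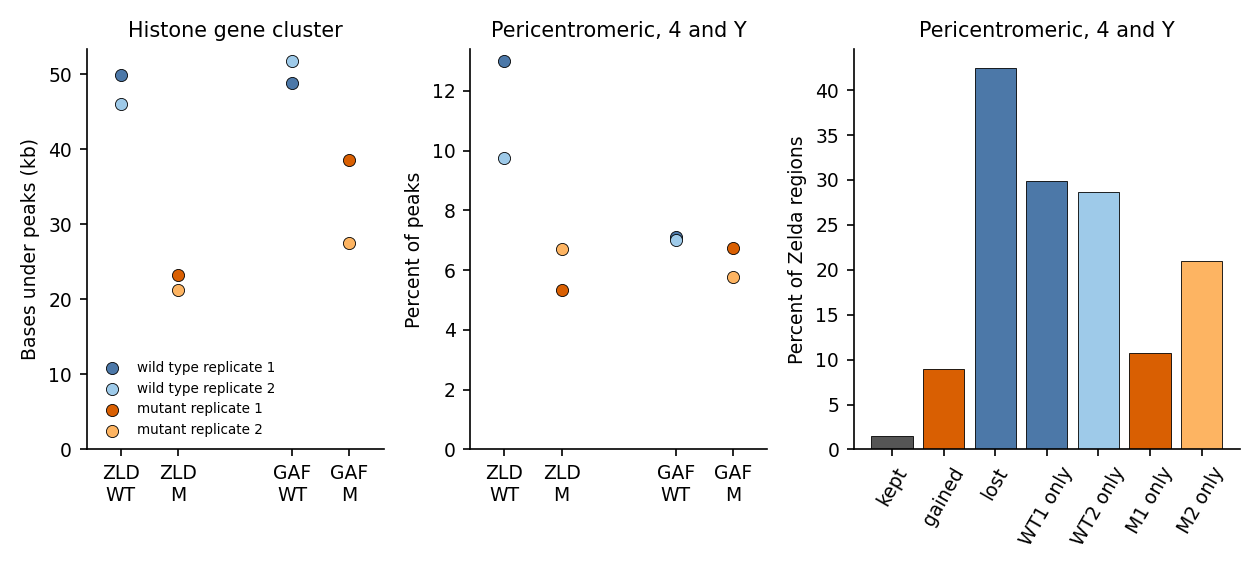
Left, kb of the histone gene cluster under Zelda (ZLD) and GAF peaks in each wild-type (WT) and mutant (M) list. Middle, percent of peaks near centromeres or on chromosomes 4 and Y in each list. Right, the same percent for classes of merged Zelda regions. Zelda peaks covered 50.0 and 46.1 kb of the cluster in the wild type, against 23.3 and 21.3 kb in the mutant lists, and 42.4% of lost regions lay near centromeres or on 4 and Y.

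At kept regions the ends of the width ratio were read next. Of the 5 kept regions with the lowest ratio, 4 were in the histone cluster, the lowest covered over 2323 and 2449 bp in the wild type, against 793 and 416 bp in the mutant lists. The remaining one was the promoter of htl, the FGF receptor gene of the mesoderm, with 1164 and 1005 bp against 287 and 293 bp. The 5 regions with the highest ratio lay in introns of uif and jing and at the promoters of akirin, Raf and tou. In uif, covered widths were 433 and 289 bp in the wild type, against 1430 and 1782 bp in the mutant lists, a ratio of 4.51. At akirin, which encodes a nuclear cofactor of transcription, they were 330 and 282 bp against 1104 and 1398 bp, and at Raf, a kinase gene of the MAPK pathway, 343 and 464 bp against 1870 and 1410 bp. Each was chosen for its ratio, so its size carries no test.

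Zelda sites were found in a similar share of peaks in both genotypes and most often in kept regions. Within 100 bp of the peak midpoint, CAGGTA on either strand was present in 12.9% and 13.4% of wild-type peaks and 12.2% and 12.2% of mutant peaks, a difference of -0.905 points (two-sided exact permutation test, n = 2 per genotype, p = 0.33). When the whole peak was searched the difference was 2.06 points, with mutant peaks being wider. The longer CAGGTAG, which contains CAGGTA, was present in 5.97% and 6.63% of wild-type and 5.72% and 5.91% of mutant peaks. Of all consecutive windows of the same 201 bp on the chromosome arms, 4.6% held CAGGTA and 1.09% held CAGGTAG. Windows centred on each TSS held them in 4.41% and 1.04% of cases.

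By class, CAGGTAG near the midpoint was present in 167 of 2083 kept regions (8.02%), 18 of 536 gained regions (3.36%) and 5 of 264 lost regions (1.89%). Regions called in 1 list alone held it in 1.73% and 0.805% of cases for the wild-type replicates and in 2.21% and 2.17% for the mutant replicates. Gained regions thus held the site more often than any set of single-list regions, and lost regions lay within the range of those sets. CAGGTA was present in 14.7% of kept, 8.21% of gained and 4.92% of lost regions, the last being close to the genome share. GAGAG, the core of the GAF site, was present in 32.2% of kept, 31.2% of gained and 25% of lost regions, against 21.5% of genome windows. A match shows only that the letters are there.

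Kept regions also coincided most with peaks of the other chromatin proteins. Wild-type consensus regions of dPCIF1 overlapped 42.3% of kept, 15.1% of gained and 21.2% of lost Zelda regions. For the histone chaperone HIRA the shares were 52.0%, 18.5% and 37.1%, and for RNA polymerase II phosphorylated at serine 5 (RNA Pol II-Ser5P) 71.0%, 38.4% and 37.9%. Wild-type GAF regions overlapped 57.0%, 32.8% and 28.4%, and mutant GAF regions 59.1%, 35.1% and 18.2%. Kept regions are wider and so overlap other regions more readily, whereas gained and lost regions were alike in width. Lost regions met HIRA more often than gained regions did, and gained regions met mutant GAF regions more often than lost ones. Of the lost Zelda regions, 22 (8.33%) overlapped a GAF region that was also lost, and 2 (0.758%) one that was gained. For gained Zelda regions these numbers were 1 (0.187%) and 8 (1.49%), and for kept ones the shares were 0.960% and 3.26%. Lost GAF regions met 2.39% and 1.29% of the regions of a single wild-type list. Gained GAF regions met 1.47% and 1.45% of those of a single mutant list, about the share of gained Zelda regions.

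Over whole lists, the overlap with other proteins did not separate the genotypes except for mutant GAF. Regions of dPCIF1 overlapped 27.4% and 31.8% of wild-type and 29.9% and 30.8% of mutant Zelda peaks, a difference of 0.738 points (two-sided exact permutation test, n = 2 per genotype, p = 1). HIRA regions overlapped 34.1% and 40.1% against 35.0% and 36.6%, and RNA Pol II-Ser5P regions 54.1% and 61.3% against 56.0% and 56.7%. For wild-type GAF regions the shares were 40.6% and 46.0% in the wild type, against 45.0% and 45.1% in the mutant lists. Mutant GAF regions overlapped 40.8% and 46.2% of wild-type and 46.3% and 46.9% of mutant Zelda peaks. This last difference was 3.09 points (exact permutation test, n = 2 per genotype, p = 0.33), smaller than the gap between the wild-type replicates.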

How the data were processed

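ChIP-seq peak lists of Zelda from 2 wild-type and 2 M-Z+ dPCIF1 mutant replicates were analysed, with lists of GAF, dPCIF1, HIRA and RNA Pol II-Ser5P beside them, and the samples other than these 14 were not analysed here. Per their methods, the authors trimmed reads (Trimmomatic 0.39), mapped them to dm6 (Bowtie2 2.2.5), removed those of quality under 30 or without a unique position (SAMtools 1.18) and called peaks per replicate (MACS2 2.2.7.1, q-value 0.01). The deposited values are peak starts and ends, with no other unit.

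Samples were grouped by their titles. Overlap, merging and motif search were computed in Python 3 with numpy, and tested on simulated lists. Genes were those of Ensembl release 115 without transposable elements. Consensus regions of other proteins were pairs of replicate peaks that overlapped by at least 20% of both lengths. List values were compared by exact permutation of the 4 lists, and regions and genes were described without a test. Named genes were the 10 gained and 10 lost protein-coding genes with the widest promoter peaks (1 per peak, symbols that start with CG or CR left out), gained or lost members of the lists, 19 early genes and the 5 kept regions at each end of the width ratio. Members, lists and rules were chosen with earlier results of these data known. Replicates are biological per the study, and p-values measure only the spread between them.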

Additional observations from a re-analysis of the deposited data

Results flagged for a closer look

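In the shares of peaks per chromosome, Zelda and GAF moved in opposite directions between the genotypes at 3R and 4, with every mutant list on one side of both wild-type lists. On 3R, Zelda had 25.4% and 25.7% of its wild-type peaks against 27.1% and 26.7% of its mutant peaks, while GAF had 24.3% and 23.6% against 23.3% and 23.2%. The Zelda effect minus the GAF effect was 1.98 percentage points (exact permutation over 36 assignments, p = 0.0556, the smallest that n = 2 per group can give). On chromosome 4, Zelda had 1.22% and 1.15% against 0.715% and 0.821%, and GAF had 1.182% and 1.24% against 1.43% and 1.32%, a difference of effects of -0.58 points (exact permutation, p = 0.0556, n = 2 per group). These were 2 of 34 measures compared in this way, and no p was under 0.708 after Benjamini-Hochberg adjustment.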

How the results depend on the processing

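The widths of peaks and of kept regions and the intron share kept their direction under every alternative run (log2 0.11 to 0.21, log2 0.22 to 0.35 and 0.729 to 1.86 percentage points), as did the histone cluster (log2 -1.96 to -1.05). Leaving out each list in turn, the log2 number of peaks ran from -0.15 to 0.19, the promoter share from -1.89 to 2.80 points and the intergenic share from -2.26 to 0.108 points. Gained, lost and kept regions then numbered 710 to 1269, 361 to 1487 and 2211 to 2491, and promoter genes 256 to 333, 207 to 543 and 1477 to 1573, upwards by construction as fewer calls are asked for. The promoter share differed by -0.776 points for peaks of at least 500 bp, -1.01 for midpoints within 1 kb of a TSS and -1.22 without the histone cluster and the sequence near centromeres, where the intergenic share differed by 1.23 points and 136 regions were lost. That alternative was chosen after the data were seen. The motif share differed by 2.06 points over whole peaks, and the overlap with RNA Pol II-Ser5P by 0.160 points at a reciprocal overlap of 20%. Peaks of at least 500 bp gave 1226 kept, 291 gained and 96 lost regions and 888 kept promoter genes, as fewer peaks entered, and 25% of those lost lay near centromeres. Consensus regions gave 1145 gained and 537 lost at a reciprocal overlap of 20%, and 1387 and 846 at 50%. Regions called in either replicate gave 3327 kept, 1767 gained and 2100 lost. With the replicate block, the log2 number of peaks differed by 0.023 (exact sign-flip permutation, p = 1, n = 2 pairs). Replicate differences of the genotypes had a correlation of -0.0070 over merged regions. Many of these regions were called in 1 list alone, where the other genotype can show no difference. This value therefore cannot decide whether lists of the same number were paired. A stricter q-value was not run, as the lists hold none, and lists cut to equal length have no difference in number.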
